A study of Arabidopsis thaliana with 6 samples.

Results

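Xyloglucan endotransglucosylase/hydrolase (XTH) genes were followed in siliques of Arabidopsis thaliana, the fruits that hold the developing seeds. The members were taken as every gene whose description in the authors' table contains the words xyloglucan endotransglucosylase, which gave 33 genes, XTH1 to XTH33, of 27779 in all. RNA-seq was done on 3 libraries of the agc1-4 mutant and 3 libraries of the wild type (WT), all from siliques 3 days after pollination. In the column headers of the authors' table, WT is named Col and agc1-4 is named sr. The labels give the genotype name agc1-4 without its lesion, and nothing in them ties the 3 libraries of a genotype to separate plants or harvests. The p-values below therefore rest on a library-to-library spread that may be technical.

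Xyloglucan is the main hemicellulose of the primary wall in plants such as Arabidopsis, a glucan backbone with xylose side chains that coats and links cellulose microfibrils. XTH proteins are secreted enzymes that cut this backbone. Most then join the new end to another xyloglucan chain, which lets a wall be loosened, rebuilt or strengthened during growth, while a small branch of the family mainly hydrolyses the chain. The family is usually divided into group I (XTH1 to XTH11), group II (XTH12 to XTH26), group IIIA (XTH31 and XTH32, the branch with hydrolase activity) and group IIIB (XTH27 to XTH30 and XTH33).

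The coding stretch around the active site is shown for 6 members because it is the part that the family shares and in which the member with the lowest adjusted p stood apart. Each line gives 10 codons (30 bases, 5′ to 3′ on the coding strand) from the RefSeq annotation of assembly TAIR10.1, found by locus tag. Capitals mark the codons at the positions of the 3 acidic residues of the active site, a glutamate, an aspartate and a second glutamate.
XTH11: catgatGAGctcTGTttcCAGatcttggga
XTH3: cacgacGAGattGACttcGAGtttctaggg
XTH27: catgatGAGataGATtttGAGtttcttggt
XTH14: tgggatGAGattGACttcGAGtttttggga
XTH4: catgacGAGataGACtttGAGttccttgga
XTH32: catgatGAGgtaGACataGAAtttttgggg

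All 3 acidic codons were found in 32 of the 33 members. XTH11 carried 1 of the 3, and none of its 3 annotated proteins held the full set. Its stretch was found by a looser pattern that itself required the first glutamate, not by alignment. XTH3, shown beside it, is its closest relative by coding sequence, at 53.5% identity. Across the family the identity to the closest other member ran from 51.4% to 89.4%, with a median of 71.6%. The predicted proteins were 269 to 357 residues long and were encoded by 2 to 4 coding exons.

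Total counts per library ran from 7973366 to 11812934. An expected 3 counts in a library, about the upper 95% limit for a count of 0, came to 0.254 to 0.376 CPM (counting error only). The mutated gene AGC1-4 was identified from background knowledge with the kinase locus AT5G40030. It had 2, 7 and 1 counts in agc1-4, against 10, 39 and 16 counts in WT. It passed the filter on low counts through WT alone (edgeR adjusted p = 0.000983). Of the alternative fits, 10 gave it an adjusted p, up to 0.0723, and 9 of these called it. The labelled tissue was checked against marker genes. The 6 fruit wall genes summed to 461 to 503 FPKM (fragments per kilobase of transcript, scaled to the library's total) in agc1-4 and 447 to 474 FPKM in WT, with FUL and RPL called lower. RPL was called in all 13 alternative fits and FUL in 5 of them. SHP1, SHP2, IND and ALC had log2 fold changes above 0 and were not called. SHP1 came closest, at 0.16 (edgeR adjusted p = 0.0543), and was called in 4 of the alternative fits. The 5 seed genes summed to 571 to 632 FPKM in agc1-4 and 464 to 634 FPKM in WT, with TT8, FWA and LEC1 called higher. Beside these marker calls, 6.55% of all genes tested were called higher and 7.07% lower. TT8 was called in 10 of the 13 alternative fits and FWA in all 13. Most of the seed sum was BAN, which overlapped between genotypes, while LEC1, a regulator of embryo development, averaged 9.69 ± 0.701 FPKM in agc1-4 and 2.11 ± 0.908 FPKM in WT (SD, n = 3 each), 4.81-fold higher in the fit (edgeR adjusted p = 1.45e-07). Its call held in all 13 alternative fits. The 5 pollen genes, of which 4 were tested, summed to 100 to 117 FPKM in agc1-4 and 79.3 to 104 FPKM in WT, with 0 called, and of 2 root hair genes COBL9 was at 0 in every library and EXPA7 stayed at or below 0.19 FPKM. In bulk tissue, fewer cells of a type and less RNA per cell cannot be told apart, and the part of these marker shifts in the XTH results was not tested.

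XTH transcripts shifted in both directions in agc1-4 siliques. XTH11, XTH14, XTH1 and XTH27 were higher, by 1.22-fold to 2.68-fold, and XTH4, XTH6, XTH8, XTH9, XTH16, XTH22 and XTH32 were lower, by 1.21-fold to 1.71-fold. Of the 33 members, 23 passed the filter on low counts, and 3 of those passed through 1 genotype alone (XTH10 and XTH19 through WT, XTH29 through agc1-4). Of the 23, 4 (17.4%) were called higher and 7 (30.4%) lower at an adjusted p under 0.05, where 6.55% and 7.07% of all 18828 genes tested were called higher and lower, 13.6% in either direction. The number called lower was 4 without agc1-4 replicate 2 and 5 in DESeq2, and the number called higher was 2 in limma with a pseudocount of 0.1 or without the FPKM filter. The calls over all genes, 2564, were 1590 in DESeq2 and 899 to 1219 in limma. All 3 agc1-4 libraries lay above all 3 WT libraries in FPKM for 5 tested members and below them for 10, beside 14.5% and 15.0% of all genes tested. Without the 3 members that passed through 1 genotype alone, these counts were 5 and 8 of 20, and the calls 4 and 7. The median log2 fold change (agc1-4 over WT) was -0.13 over the 23 members and 0.00 over all genes tested. The 23 include XTH10 (-0.89), XTH19 (-1.16) and XTH29 (0.37), which passed through 1 genotype alone, and a median without these was not computed.

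**Figure D1:**
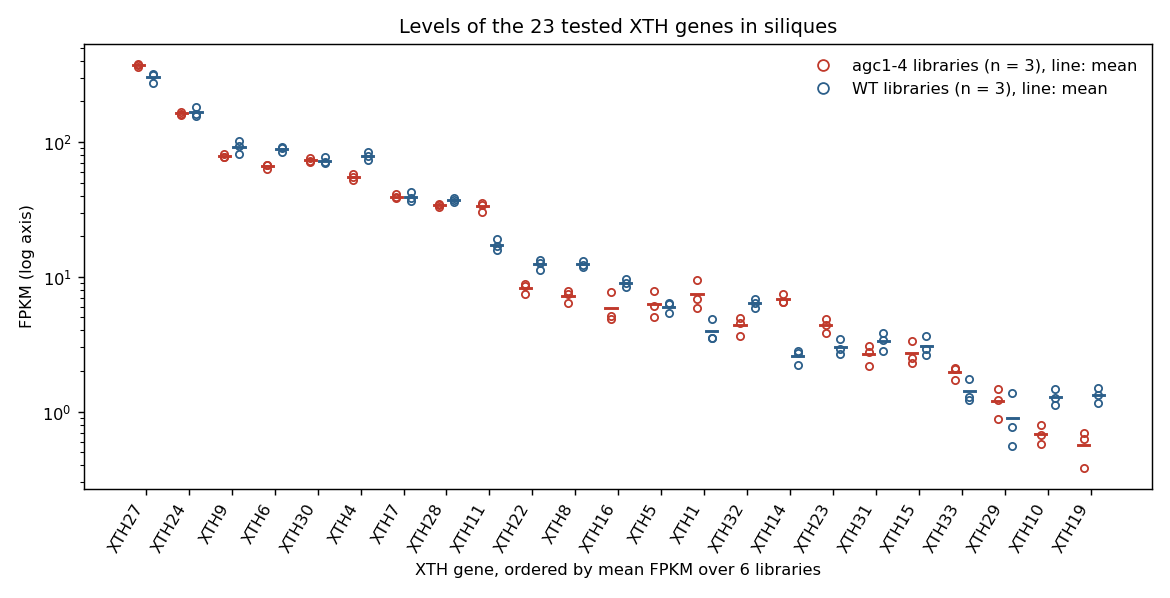
FPKM on a log axis for the 23 tested XTH genes, ordered by their mean over 6 libraries, with agc1-4 libraries in red left of WT libraries in blue (circles, n = 3 each) and lines at the means. XTH27 is the highest in both genotypes, and the separated clouds of XTH11, XTH14 and XTH1 (agc1-4 above WT) and of XTH4, XTH6, XTH8 and XTH22 (agc1-4 below WT) can be seen.

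The summed level of the family differed by less than the spread between libraries. The 33 genes summed to 989, 981 and 955 FPKM in agc1-4 replicates 1 to 3, against 929, 950 and 1011 FPKM in WT replicates 1 to 3, so the agc1-4 sums lay within the WT range. The mean difference was 11.8 FPKM, or 1.22% of WT, with a WT SD of 42.6 FPKM, and it turned to -5.31 FPKM without WT replicate 1. The FPKM of all genes summed to 663666 to 668610 in agc1-4 libraries and 643567 to 656645 in WT libraries. Every agc1-4 total was above every WT total. The family sums were not rescaled to these totals, so the sign of the 11.8 FPKM difference is not settled. XTH27 alone made up 38.0% of the family's FPKM in agc1-4 and 31.4% in WT. The other 32 genes summed to 605 ± 8.20 FPKM in agc1-4 and 661 ± 28.9 FPKM in WT (SD, n = 3 each), and here every agc1-4 library was below every WT library.

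By group, the 11 genes of group I summed to 295 ± 7.13 FPKM in agc1-4 and 340 ± 9.90 FPKM in WT (SD, n = 3 each). Group II, with 15 genes, summed to 192 ± 5.44 FPKM in agc1-4 and 199 ± 14.4 FPKM in WT, and the libraries overlapped. The pair of group IIIA summed to 7.06 ± 1.04 FPKM in agc1-4 and 9.70 ± 0.482 FPKM in WT. Group IIIB, with 5 genes, summed to 480 ± 12.9 FPKM in agc1-4 and 414 ± 26.4 FPKM in WT, which is mostly XTH27. Beside 6.55% higher and 7.07% lower over all genes tested, called genes came from every group: 2 higher and 4 lower of 9 tested in group I, 1 and 2 of 7 in group II, 0 and 1 of 2 in group IIIA, and 1 and 0 of 5 in group IIIB.

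**Figure D2:**
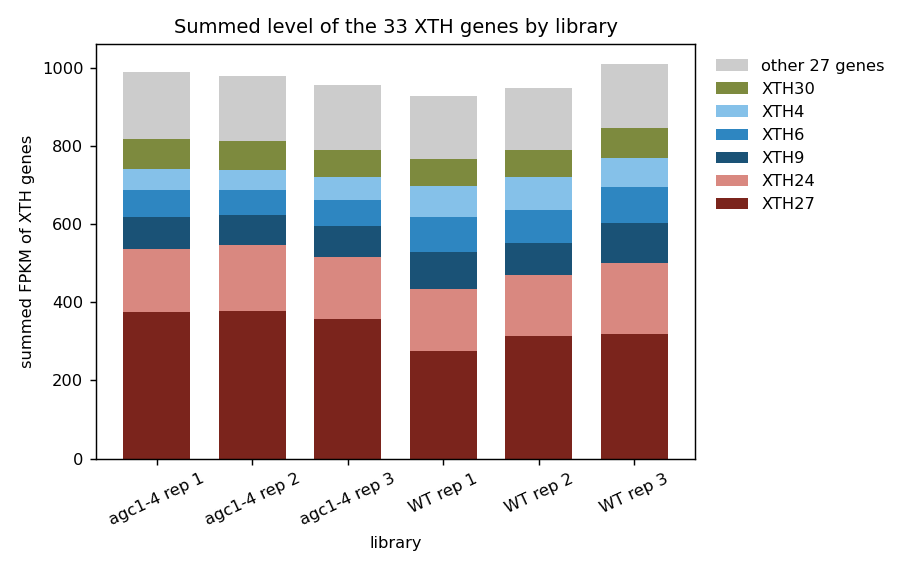
Summed FPKM of the 33 XTH genes in each library, agc1-4 left and WT right, with the 6 members that are highest in WT as coloured segments and all other members in grey. The column heights run from 929 to 1011 FPKM and overlap between genotypes, while the XTH27 segment is larger and the XTH4 and XTH6 segments are smaller in every agc1-4 library.

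XTH27, a group IIIB gene known from leaf veins, was the most abundant member in every library. It stood at 375, 378 and 358 FPKM in agc1-4 replicates 1 to 3, against 275, 313 and 318 FPKM in WT. The highest WT library remained below the lowest agc1-4 library, although WT replicate 1 was apart from the other two. Its log2 fold change was 0.29 ± 0.05 (SE, edgeR adjusted p = 0.000403). The call was lost in the tests on FPKM (limma adjusted p = 0.0752 to 0.0967) and held in the other 10 alternative fits, with adjusted p down to 2.70e-06. Its closest relative, XTH28, known for a part in stamen filament growth, had 32.9, 35.0 and 34.2 FPKM in agc1-4 and 37.2, 36.0 and 38.2 FPKM in WT. Here the agc1-4 libraries were slightly below the WT libraries, with a log2 fold change of -0.13 (95% interval -0.27 to 0.02, edgeR adjusted p = 0.282).

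XTH30, also of group IIIB, had 75.5, 72.9 and 70.5 FPKM in agc1-4 and 69.7, 71.1 and 77.5 FPKM in WT. Its libraries were mixed, and the interval of its log2 fold change, -0.12 to 0.14, lay below the whole interval of XTH27 (0.18 to 0.41). The other genes of the group were low. XTH33, whose protein is predicted to be anchored in the plasma membrane, had 2.10, 1.73 and 2.08 FPKM in agc1-4 and 1.76, 1.21 and 1.28 FPKM in WT. XTH29 had 1.23, 1.46 and 0.88 FPKM in agc1-4 and 1.38, 0.56 and 0.77 FPKM in WT, and both genes overlapped between genotypes. Neither was called (edgeR adjusted p = 0.346 and 0.612), and their intervals were wide, -0.16 to 1.14 for XTH33 and -0.45 to 1.19 for XTH29 on the log2 scale.

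XTH11, the group I gene without the full set of acidic codons, had the lowest adjusted p of the family. Its FPKM was 35.3, 34.0 and 30.5 in agc1-4, against 15.7, 19.2 and 16.97 in WT. The libraries of the genotypes were far apart relative to their spread, and the log2 fold change was 0.94 ± 0.10 (SE, edgeR adjusted p = 5.20e-08). With 284 to 487 counts in agc1-4 libraries and 155 to 261 in WT libraries, this was a well-covered gene. The call held in each of 13 alternative fits, with log2 fold changes of 0.88 to 1.02 and adjusted p of 5.39e-17 to 0.00986.

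XTH14, a group II gene known for enzyme activity in growing roots, had the largest log2 fold change among the 11 called members. It stood at 7.47, 6.52 and 6.56 FPKM in agc1-4, against 2.84, 2.20 and 2.74 FPKM in WT. The lowest agc1-4 library was far above the highest WT library. The log2 fold change was 1.42 ± 0.21 (SE, edgeR adjusted p = 1.44e-05), and the call held in each of the 13 alternatives, with adjusted p up to 0.00587. XTH23 is the next protein-coding gene on chromosome 4, on the same strand. It had 4.38, 4.86 and 3.84 FPKM in agc1-4 and 3.44, 2.94 and 2.68 FPKM in WT. These values did not overlap either, but the gene was not called, at a log2 fold change of 0.54 ± 0.21 (SE, edgeR adjusted p = 0.0854). The 2 coding sequences were 63.3% identical.

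XTH1, a group I gene, had 6.89, 5.91 and 9.43 FPKM in agc1-4, against 3.53, 4.86 and 3.54 FPKM in WT. The genotypes did not overlap, with agc1-4 replicate 3 well above the rest. The log2 fold change was 0.86 ± 0.22 (SE, edgeR adjusted p = 0.00747), on 29 to 79 counts per library. Without agc1-4 replicate 3 the adjusted p was 0.0752, and the call was also lost in limma with a pseudocount of 0.1 or without the FPKM filter (0.0668 and 0.0642), within alternatives that went down to 0.00146. XTH2, its neighbour on chromosome 4 with no other protein-coding gene between them, had at most 3 counts in a library and did not pass the filter.

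**Figure D3:**
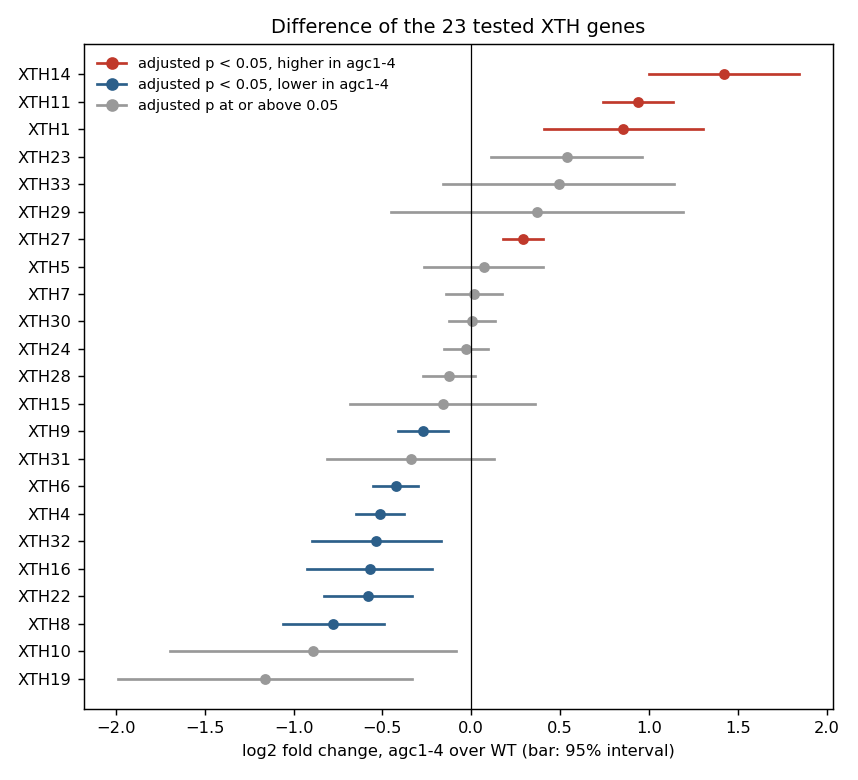
Log2 fold change of agc1-4 over WT for each of the 23 tested XTH genes, ordered from highest to lowest, with points at the edgeR estimate and bars for the 95% interval. Red marks the 4 genes called higher, blue the 7 called lower and grey the 12 not called; the intervals of XTH24, XTH7 and XTH30 are narrow and span 0.

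The 4 called lower members of group I included 3 of the 6 genes that are highest in WT. XTH4, known with XTH9 from growth of stem tissues and secondary walls, had 55.3, 52.7 and 58.2 FPKM in agc1-4, against 78.2, 84.2 and 74.1 FPKM in WT. Every agc1-4 library was clearly below every WT library. The log2 fold change was -0.51 ± 0.07 (SE, edgeR adjusted p = 2.51e-06). XTH6 stood at 68.0, 63.2 and 67.4 FPKM in agc1-4, against 90.5, 84.1 and 92.2 FPKM in WT. Again the genotypes were separated by more than the spread within either, at a log2 fold change of -0.42 ± 0.06 (SE, edgeR adjusted p = 1.54e-05). Both calls held in all 13 alternatives, with adjusted p up to 0.0246 for XTH4 and 0.0289 for XTH6.

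XTH9, a gene known from shoot apices and cell elongation, had 81.6, 78.0 and 77.5 FPKM in agc1-4, against 93.6, 82.1 and 101 FPKM in WT. WT replicate 2 almost touched agc1-4 replicate 1, and the log2 fold change was small, at -0.27 ± 0.07 (SE, edgeR adjusted p = 0.00693). Without agc1-4 replicate 2 the adjusted p was 0.0701, and it was 0.204 to 0.243 in limma, within alternatives that went down to 1.10e-05. XTH8 was lower in level but differed more, with 7.44, 6.43 and 7.83 FPKM in agc1-4, against 13.01, 12.3 and 11.8 FPKM in WT. Its log2 fold change of -0.78 ± 0.14 (SE, edgeR adjusted p = 0.000217) was the deepest among called members and held in all 13 alternatives, with adjusted p up to 0.0137.

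Apart from XTH4, XTH6, XTH8 and XTH9, called lower, and XTH11 and XTH1, called higher, the tested genes of group I showed no called difference. XTH7, the closest relative of XTH6 at 71.6% coding identity, had 41.0, 38.9 and 38.3 FPKM in agc1-4 and 38.5, 36.4 and 42.6 FPKM in WT. The libraries were mixed, and the interval of the log2 fold change was -0.14 to 0.17, while that of XTH6 was -0.55 to -0.30. XTH5, the closest relative of XTH4, had 5.07, 7.79 and 6.10 FPKM in agc1-4 and 5.35, 6.31 and 6.39 FPKM in WT, mixed values with an interval of -0.26 to 0.40. XTH10 had 0.80, 0.58 and 0.67 FPKM in agc1-4 and 1.47, 1.27 and 1.12 FPKM in WT. Those values did not overlap, but on 7 to 19 counts per library the gene was not called (log2 fold change -0.89 ± 0.39, SE, edgeR adjusted p = 0.141). In limma its adjusted p was 0.0288 to 0.0436, but it passed the filter on low counts, and reached 1 FPKM, in WT alone. XTH3, whose enzyme can also act on cellulose chains, had 0 counts in agc1-4 and 2, 0 and 2 in WT.

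In group II, XTH22 was lower. This gene is also known as TCH4 and was named for its induction by touch. It had 8.89, 7.41 and 8.60 FPKM in agc1-4, against 12.7, 13.3 and 11.2 FPKM in WT. The genotypes were clearly apart, at a log2 fold change of -0.58 ± 0.12 (SE, edgeR adjusted p = 0.00131), and the call held in all 13 alternatives, with adjusted p up to 0.0361. XTH22 lies at one end of a run of neighbours on chromosome 5 with XTH12, XTH13 and XTH25. Those 3 were nearly silent, with at most 6 counts in a library, and XTH13 was at 0 throughout.

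XTH16 had 7.73, 5.15 and 4.85 FPKM in agc1-4, against 8.94, 8.46 and 9.56 FPKM in WT. Replicate 1 of agc1-4 lay near the WT libraries. The log2 fold change was -0.57 ± 0.17 (SE, edgeR adjusted p = 0.0241), and the call was lost without agc1-4 replicate 2 or 3 (adjusted p = 0.140 and 0.134), without WT replicate 1 or 3 (0.0682 and 0.0587), in DESeq2 (0.0934) and in limma (0.0765 to 0.106), within alternatives of 0.00457 to 0.140. Its closest relative XTH15, a gene of shade-induced growth, had 2.29, 3.34 and 2.49 FPKM in agc1-4 and 2.90, 2.64 and 3.64 FPKM in WT, which overlapped (edgeR adjusted p = 0.744). XTH15 was the 1 member with counts that were not whole.

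XTH24, first described as the meristem gene MERI5B, ranked second in both genotypes. It had 162, 168 and 159 FPKM in agc1-4 and 160, 156 and 183 FPKM in WT. The libraries were mixed, with an interval of -0.15 to 0.10 on the log2 scale. XTH24, XTH18 and XTH19 follow each other on chromosome 4, and their levels were very different. XTH19 had 0.63, 0.70 and 0.38 FPKM in agc1-4 and 1.33, 1.16 and 1.51 FPKM in WT. These did not overlap, on 4 to 18 counts per library. The gene passed the filter on low counts, and reached 1 FPKM, in WT alone. It was not called (log2 fold change -1.16 ± 0.40, SE, edgeR adjusted p = 0.0538). In the alternatives the adjusted p was 0.0218 to 0.225, and under 0.05 in limma alone. XTH18, known from roots and 87.4% identical to XTH19 in coding sequence, had 0, 5 and 0 counts in agc1-4 and 3, 2 and 2 in WT.

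Of group IIIA, XTH32 had 3.67, 4.94 and 4.54 FPKM in agc1-4, against 6.39, 5.86 and 6.84 FPKM in WT. The genotypes did not overlap, but the call was marginal, at a log2 fold change of -0.53 ± 0.18 (SE, edgeR adjusted p = 0.0434). The adjusted p was 0.225, 0.0583 and 0.0850 without agc1-4 replicate 1, 2 or 3, and 0.107 and 0.102 without WT replicate 1 or 3. In addition, the call was lost in DESeq2 (0.181) and in limma with a pseudocount of 0.1 or without the FPKM filter (0.0663 in each). The lowest adjusted p among the alternatives was 0.0359. XTH31, its closest relative and a gene of aluminium sensitivity in roots, had 2.19, 2.77 and 3.06 FPKM in agc1-4 and 3.82, 3.39 and 2.81 FPKM in WT. These values overlapped, and the interval of its log2 fold change was -0.81 to 0.13.

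Those with too few counts for the filter numbered 10: XTH2, XTH3, XTH12, XTH13, XTH17, XTH18, XTH20, XTH21, XTH25 and XTH26. None exceeded 0.60 FPKM or 6 counts in any library, and XTH13, XTH20 and XTH26 had 0 counts in all 6. XTH17, known from roots, had 0, 0 and 1 counts in agc1-4 and 3, 2 and 3 in WT. XTH21, a root growth gene, had 2, 0 and 1 counts in agc1-4 and 0 in WT. XTH25 had 6, 1 and 3 counts in agc1-4 and 6, 2 and 3 in WT. In fits without a filter on low values, the 7 with any count were not called, with 0 calls and a lowest adjusted p, for XTH17, of 0.232 in edgeR and 0.124 in limma. An unadjusted p under 0.05 was reached by 0 of the 7 in edgeR and DESeq2 and by 1, XTH17, in limma. DESeq2 gave an adjusted p for 3 of the 7, the lowest 0.400. Close relatives among them, such as XTH12 and XTH13 at 89.4% coding identity or XTH17, XTH18 and XTH20, can share reads, and how such reads were counted was not given.

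The order of levels was similar in both genotypes. XTH27, XTH24 and XTH9 were the highest members in each, in that order. In agc1-4 they were followed by XTH30, XTH6 and XTH4 at 73.0 ± 2.51, 66.2 ± 2.59 and 55.4 ± 2.76 FPKM, where in WT XTH6, XTH4 and XTH30 stood at 88.9 ± 4.31, 78.8 ± 5.05 and 72.7 ± 4.15 FPKM (SD, n = 3 each). In agc1-4 XTH30 was above XTH6 in every library and above XTH4 in every library. In WT the neighbours XTH9 and XTH6, with 82.1 to 101 and 84.1 to 92.2 FPKM, overlapped, as did XTH4 and XTH30, with 74.1 to 84.2 and 69.7 to 77.5 FPKM. These 6 genes made up 82.8% of the family's FPKM in agc1-4 and 83.2% in WT.

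**Figure D4:**
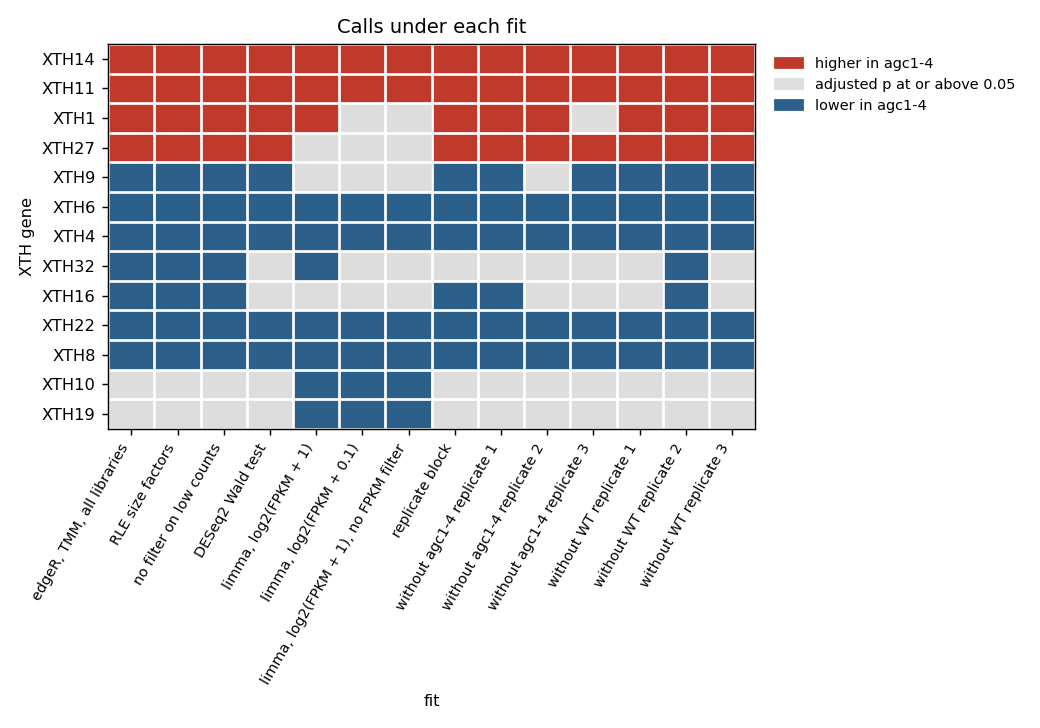
Calls of the 11 XTH genes with an adjusted p under 0.05, and of XTH10 and XTH19, under the fit with all libraries (first column) and 13 alternative fits. Red marks a gene called higher in agc1-4, blue one called lower and grey an adjusted p at or above 0.05; XTH14, XTH11, XTH6, XTH4, XTH22 and XTH8 keep their colour in every column.

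Genes that make the substrate of these enzymes were lower in part. Of 15 xyloglucan synthesis genes, all tested, 6 were called lower and 0 higher, where 7.07% of all genes tested were called lower, and their median log2 fold change was -0.18. CSLC4 and CSLC8, of the family of glucan synthases that make the backbone, had 20.6, 18.8 and 19.7 FPKM (CSLC4) and 8.59, 8.51 and 8.40 FPKM (CSLC8) in agc1-4, against 25.8, 28.0 and 25.8 FPKM and 11.5, 11.4 and 10.6 FPKM in WT. Both were separated in every library, at log2 fold changes of -0.43 ± 0.07 and -0.41 ± 0.09 (SE, edgeR adjusted p = 8.15e-05 and 0.00205), and both calls held in all 13 alternatives.

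XXT2 and XXT5, xylosyltransferases that add the side chains, had 35.3, 38.1 and 35.6 FPKM (XXT2) and 36.4, 38.1 and 39.4 FPKM (XXT5) in agc1-4, against 47.5, 42.9 and 44.0 FPKM and 48.7, 44.8 and 46.3 FPKM in WT. They fell by 0.30 on the log2 scale each (edgeR adjusted p = 0.00265 and 0.00240), and lost their calls in limma alone (adjusted p = 0.0587 to 0.0760 and 0.0559 to 0.0721). MUR3, which adds galactose, and AXY4, which acetylates it, were the weakest calls, at 1.17-fold and 1.27-fold lower (edgeR adjusted p = 0.0348 and 0.0397). Each lost its call in DESeq2, in limma and without any 1 of the agc1-4 libraries or WT replicate 1, and MUR3 also without WT replicate 2 and AXY4 also without WT replicate 3 (adjusted p up to 0.162 and 0.157). Not called were XXT1, XXT3, XXT4, CSLC5, CSLC6, CSLC12, XLT2, FUT1 and AXY4L (edgeR adjusted p = 0.0912 to 0.782).

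Of 3 genes for enzymes that trim the side chains, 1 was called lower, beside 7.07% of all genes tested. AXY8, a fucosidase, had 16.8, 19.2 and 17.3 FPKM in agc1-4, against 21.5, 24.0 and 21.9 FPKM in WT, a log2 fold change of -0.35 ± 0.07 (SE, edgeR adjusted p = 0.00134; limma adjusted p = 0.0588 to 0.0771). The xylosidase gene XYL1 averaged 21.3 ± 0.986 FPKM in agc1-4 and 22.5 ± 0.815 FPKM in WT, and the galactosidase gene BGAL10 7.97 ± 0.281 and 7.93 ± 1.31 FPKM (SD, n = 3 each). Neither was called (edgeR adjusted p = 0.478 and 0.991).

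**Figure D5:**
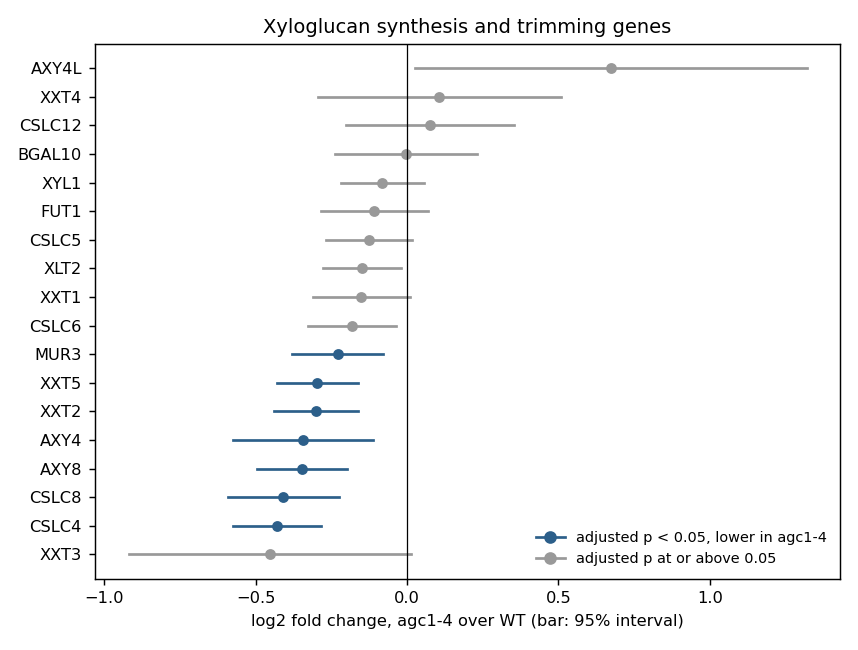
Log2 fold change of agc1-4 over WT for 15 xyloglucan synthesis genes and 3 trimming genes, ordered from highest to lowest, with points at the edgeR estimate and bars for the 95% interval. Blue marks the 7 genes called lower (CSLC4, CSLC8, AXY8, AXY4, XXT2, XXT5 and MUR3) and grey those not called.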

How the data were processed

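The authors deposited 1 table of 27779 genes with estimated counts and FPKM for each of the 6 libraries, per the file headers. The deposited estimated counts were not whole in 4.32% to 4.86% of the values of a library. The FPKM were computed by the authors. Aligner, counting tool, genome build and strand setting are not given in the sources used here, so no coordinates are printed. Of the rows, 27420 matched a RefSeq locus (TAIR10.1), which gave names, neighbours and coding sequences, read and aligned with Biopython 1.88 (identity over all aligned columns, gaps included).

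Counts were rounded and tested with edgeR 4.0.16 in R 4.3.3 (TMM, filterByExpr, robust quasi-likelihood F-test, no covariates) on all genes, with Benjamini-Hochberg adjustment over the 18828 that passed. The size of the log2 fold change over the root of F gave the SE. Alternative fits used RLE scaling, all genes without the filter, DESeq2 1.42.0, limma 3.58.1 on log2(FPKM + 1) and on log2(FPKM + 0.1) for genes that reached 1 FPKM in 3 or more libraries, the pseudocount of 1 without that filter, the replicate block, and each library left out.

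Members and lists were chosen with earlier results of these data known. Values per library are given for members with a mean FPKM of at least 1 or a call, and the others are named with their counts. Each called gene of the pathway list is named. The active-site stretch of XTH11, XTH4 and XTH27 was shown by rule (lowest adjusted p in each direction, highest level), and those of XTH3, XTH14 and XTH32 were chosen after their values were seen. Of 20 pathway genes listed, 2 whose names matched neither table were left out, as was 1 root hair marker.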

Additional observations from a re-analysis of the deposited data

How the results depend on the processing

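XTH11, XTH14, XTH4, XTH6, XTH8 and XTH22 kept their direction and call in all 13 alternatives, and the other 5 called members kept their direction. The number called higher, 4, was 2 in limma with a pseudocount of 0.1 and 2 without the FPKM filter, and 3 to 4 with 1 library left out. The number called lower, 7, was 5 in DESeq2, 4 to 7 with 1 library left out (4 without agc1-4 replicate 2) and 6 with the replicate block, where XTH32 had an adjusted p of 0.0509 and which otherwise changed no call of a member. In limma the number was 6 to 7, but of other members. Each limma fit called XTH10 and XTH19, which passed the filter on low counts through WT alone, and did not call XTH9 or XTH16. Replicate numbers gave no sign of pairing. Deviations from the group means correlated at -0.030, 0.0050 and 0.034 between libraries of the same number, and not every library correlated best with its own number. With 3 libraries per genotype, such values cannot show that libraries of the same number shared no harvest. Over all genes, 2564 were called, against 1590 in DESeq2, 1219 and 899 in limma with pseudocounts of 1 and 0.1, 976 without the FPKM filter, 2643 with the replicate block, and 1688 to 2816 with 1 library left out. The pathway list gave 7 calls, and 2 in each limma fit. The family sum differed by 11.8 FPKM, by -56.3 FPKM without XTH27 and by -5.31 to 35.7 FPKM with 1 library left out, a setting chosen after seeing the data. The cause of these changes was not tested. Among members not called, the sign of the log2 fold change turned for XTH5 (-0.10 without agc1-4 replicate 2; range -0.10 to 0.22 with 1 library left out), XTH7 (-0.011 without agc1-4 replicate 1 and -0.046 without WT replicate 2; -0.046 to 0.081), XTH24 (0.046 without WT replicate 3; -0.080 to 0.046) and XTH30 (-0.015 without agc1-4 replicate 1 and -0.017 without WT replicate 1 or 2; -0.017 to 0.055). Of the 10 members below the filter, with up to 6 counts a library, 7 were fitted without a filter and 0 were called; the other 3 had no counts.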
